A study of Mus musculus with 8 samples.

Results

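The interleukin-2 (IL-2) receptor and STAT5 axis comprised 10 genes, taken by gene symbol: the cytokine Il2, the receptor chains Il2ra, Il2rb and Il2rg, the kinases Jak1 and Jak3, the transcription factors Stat5a and Stat5b, and the feedback inhibitors Cish and Socs1. Of these, 8 had a named probe set, each exactly 1, among the 19505 genes of the table, while Il2rg and Jak3 had no match and are not analysed here. Expression was measured on 8 one-colour arrays of T cells from the spleens of male wildtype C57BL/6 mice, with a mixture of CD4 and CD8 cells on each array. All cells were kept for 48 h with beads bearing anti-CD3 and anti-CD28 antibodies, and 4 arrays came from cells given the vehicle PBS and 4 from cells given human beta-defensin-2 (hBD-2), a cationic antimicrobial peptide of epithelia. The labels state the dose as 60 µL/mL with no mass, so the concentration is unknown, and they name 4 mice without saying which array came from which mouse. The spread between arrays may therefore be partly technical, and p-values measure only that spread.

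IL-2 is a growth factor that activated T cells make and also consume. It binds with high affinity to a complex of the alpha chain (Il2ra, CD25), the beta chain (Il2rb) and the common gamma chain, and the beta and gamma chains carry JAK1 and JAK3. These kinases phosphorylate STAT5A and STAT5B, which enter the nucleus and induce Il2ra itself and the inhibitors Cish and Socs1, so that the pathway holds both a positive and a negative loop. Regulatory T cells, which make little IL-2, carry the alpha chain at rest.

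The promoters of Cish and Il2ra are shown because Cish is a standard readout of STAT5 activity and Il2ra is the member that passed the test. Windows from 250 bases before to 50 after each annotated start were taken from RefSeq (GRCm38.p6), which held 11 windows for 9 of the 10 members, Il2rb being the one without a window. The motif TTCNNNGAA, the palindrome that STAT proteins recognise and the same on both strands, was in 8.3% of 32851 windows, and in 0.457% it occurred 2 or more times. Among the members it was found in Cish alone, 2 times without overlap. The first stretch below covers both matches, at chr9:107296654-107296683 on the plus strand, and begins 5 bases before the annotated start. The second is the whole 250 bases before the start of Il2ra, at chr2:11642542-11642791 on the plus strand, with matches to GGG and CC parted by any 5 bases, a loose form of the site of NF-kappaB, which is known to act on this promoter. Such matches began at 2 neighbouring positions and overlapped each other, the first fitting on both strands and the second on the minus strand only. A match on either strand was found in 50.8% of all windows. Windows of Il2, Jak1, Cish, Stat5a, Stat5b and Socs1 also held matches to this motif, and those of Jak3 and Il2rg held none. Capitals mark the matched bases in both stretches.
Cish: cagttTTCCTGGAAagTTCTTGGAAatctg
Il2ra: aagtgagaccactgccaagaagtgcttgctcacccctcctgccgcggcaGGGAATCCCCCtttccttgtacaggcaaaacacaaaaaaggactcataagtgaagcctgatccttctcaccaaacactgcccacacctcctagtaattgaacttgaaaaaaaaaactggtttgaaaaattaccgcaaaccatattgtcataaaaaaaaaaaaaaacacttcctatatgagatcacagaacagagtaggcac
The matches describe letters in these windows, and binding was not measured.

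Values are deposited log2 expression values, and a fold change is the mean of the hBD-2 arrays less that of the PBS arrays on this scale, with its standard error (SE) from a limma fit over all genes. The arrays differed slightly in scale. The interquartile range of log2 values was 3.68 ± 0.05 (SD, n = 4) with PBS and 3.53 ± 0.09 with hBD-2 (exact two-sided permutation test, p = 0.0571), with hBD-2 arrays 3 and 4 the narrowest at 3.45 each. Genes above the upper quartile of mean level, which include 7 of the 8 matched members, had a median log2 fold change of -0.08, or 0.01 after quantile normalization was repeated. Of all genes, 4.46% passed the threshold of a adjusted p by limma of 0.05, 3.66% being lower and 0.8% higher with hBD-2. Of the 869 that passed, 82.0% were lower with hBD-2, or 69.7% after quantile normalization and 72.4% after cyclic loess. All 14 T cell marker genes lay above the upper quartile of mean level and none passed the threshold. At an unadjusted limma p under 0.05, a cut met by 22.3% of all genes, there were 2 of these 14. Among the 14, Cd247, a chain of the T cell receptor complex named after its values were seen, passed after quantile normalization (log2 fold change 0.33, adjusted p by limma 0.0446) and after cyclic loess (0.33, 0.0465).

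Among the 8 matched members, Il2ra fell with hBD-2 and the other 7 did not pass the threshold. A count of 1 of 8 is set against the 4.46% of all genes that passed, and with so few members it is no result about the axis as a group. The log2 fold change was below 0 for 5 members and above 0 for 3, with a median of -0.20, where the median over all genes was 0.02. The 4 values of each group did not overlap for Il2ra, Il2rb and Stat5a, 3 of 8 members, where 14.9% of all genes did not overlap. After quantile normalization the groups did overlap for Stat5a. In such bulk samples, fewer cells expressing a gene and less RNA per cell cannot be told apart.

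**Figure D1:**
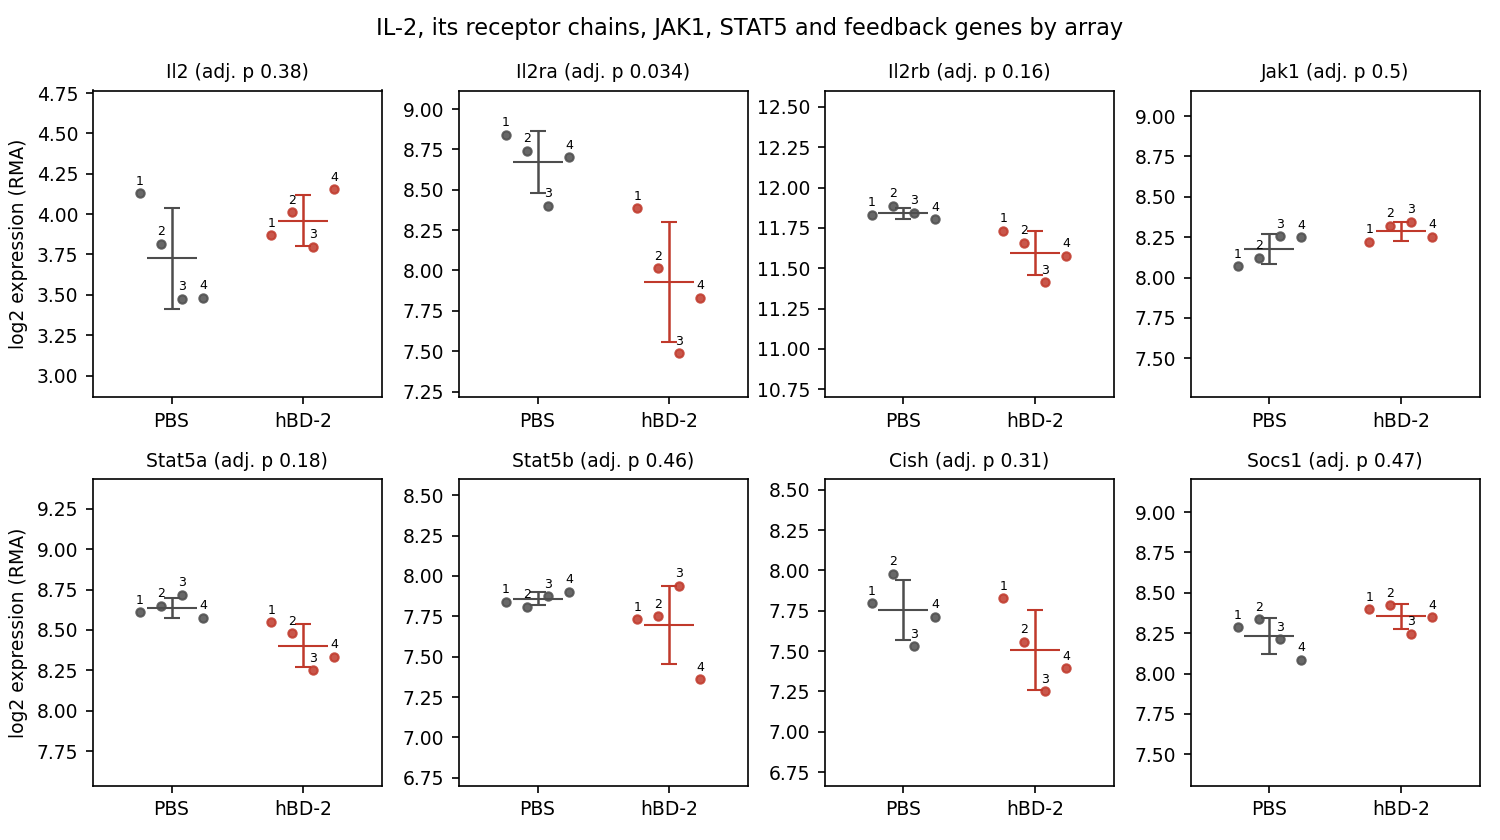
Log2 expression (vertical axis, the same span of 1.9 units in every panel) of the 8 matched members on each array, with PBS in grey and hBD-2 in red, points numbered by replicate, and bars giving the mean and SD of 4 arrays. Il2ra shows the lowest hBD-2 values relative to PBS, from 8.38 on array 1 down to 7.49 on array 3, while Jak1 and Socs1 overlap between groups.

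The cytokine gene itself was dim. Il2 had log2 values of 4.13, 3.82, 3.48 and 3.48 on PBS arrays 1 to 4 and of 3.87, 4.01, 3.80 and 4.16 on hBD-2 arrays 1 to 4. The groups overlapped, the highest PBS array lying between the 2 highest hBD-2 arrays. Over the groups, Il2 had a log2 fold change of 0.23 (SE 0.15, 95% confidence interval -0.09 to 0.56, adjusted p by limma = 0.384). The mean level lay at percentile 26.3 of all genes, close to the floor of these values, where a change is compressed, so a change in Il2 RNA may not have been detectable at 48 h.

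Il2ra, the inducible alpha chain, was the member with the largest difference. Its log2 values were 8.84, 8.74, 8.40 and 8.70 on PBS arrays 1 to 4 and 8.38, 8.01, 7.49 and 7.83 on hBD-2 arrays 1 to 4. Every hBD-2 value was below every PBS value, though hBD-2 array 1 came within a small margin of PBS array 3. The group means were 8.67 ± 0.19 and 7.93 ± 0.37 (SD, n = 4 each), a fall of 1.67-fold (log2 fold change -0.74, SE 0.17, adjusted p by limma = 0.0342). Put otherwise, Il2ra RNA with hBD-2 was at 59.8% of its PBS level, with a 95% confidence interval from 46.2% to 77.3%.

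That call rested on the full set of arrays. It was lost in 6 of 8 fits that left out a single array: PBS replicate 1 (adjusted p = 0.0977), PBS replicate 2 (0.0928), PBS replicate 4 (0.0875), and, among the hBD-2 arrays, replicate 2 (0.0546), replicate 3 (0.0798) or replicate 4 (0.0940), all by limma. The log2 fold change in those 8 fits stayed between -0.89 and -0.60, and it was -0.47 (adjusted p by limma = 0.247) without hBD-2 arrays 3 and 4 together. The direction was the same in every setting tried.

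Il2rb, the signalling beta chain shared with the IL-15 receptor, had a small difference between tight groups. Its log2 values were 11.83, 11.89, 11.84 and 11.81 on PBS arrays 1 to 4, and 11.73, 11.66, 11.42 and 11.58 on hBD-2 arrays 1 to 4. The groups did not overlap. Il2rb had a log2 fold change of -0.25 (SE 0.09, adjusted p by limma = 0.155), and the unadjusted 95% interval for the hBD-2 level, 73.1% to 97.3% of PBS, overlapped that of Il2ra. With limma's variance trend and robust estimation, under which 10.4% of all genes passed, Il2rb also passed (adjusted p = 0.00335).

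Whether the 2 receptor chains changed unequally was tested on the difference between their log2 values on each array. Il2ra minus Il2rb was -3.17 ± 0.19 (SD, n = 4) on PBS arrays and -3.67 ± 0.24 with hBD-2, a shift of -0.50 (exact two-sided permutation test, p = 0.0571, and 0.0857 adjusted over the 3 contrasts that could be computed). The smallest p that 4 arrays against 4 can give is 0.0286. The groups overlapped, as PBS array 3 stood at -3.44 and hBD-2 array 1 at -3.35. The larger fall of the alpha chain was thus not established against the beta chain.

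Jak1, the kinase bound by the beta chain, had log2 values of 8.07, 8.12, 8.26 and 8.25 on PBS arrays 1 to 4 and of 8.22, 8.32, 8.35 and 8.25 on hBD-2 arrays 1 to 4. The groups overlapped. A log2 fold change of 0.11 (SE 0.09, adjusted p by limma = 0.497) had an interval from 94.4% to 124% of the PBS level.

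The paralogous transcription factors STAT5A and STAT5B are encoded by neighbouring genes and have largely overlapping roles. Stat5a was at 8.61, 8.65, 8.72 and 8.58 on PBS arrays 1 to 4 and at 8.55, 8.48, 8.25 and 8.34 on hBD-2 arrays 1 to 4, in log2 units. Here too the groups did not overlap, yet the gap between them was small. After quantile normalization they overlapped, with hBD-2 array 1 at 8.54 and PBS array 4 at 8.52. The log2 fold change was -0.24 (SE 0.10, adjusted p by limma = 0.177), an hBD-2 level of 73.5% to 98.2% of PBS by the unadjusted 95% interval.

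Stat5b was at 7.84, 7.81, 7.88 and 7.90 on PBS arrays 1 to 4 and at 7.73, 7.75, 7.94 and 7.36 on hBD-2 arrays 1 to 4. The hBD-2 arrays scattered widely for this gene, array 3 lying above all PBS arrays and array 4 far below. For Stat5b the log2 fold change was -0.16 (SE 0.12, adjusted p by limma = 0.458). The array difference Stat5a minus Stat5b was 0.78 ± 0.08 (SD, n = 4) with PBS and 0.71 ± 0.28 with hBD-2 (exact two-sided permutation test, p = 0.771). Its shift of -0.073 turned to 0.059 without hBD-2 replicate 3. The 2 genes share much of their coding sequence, and whether their probe sets share signal was not tested.

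Of the feedback inhibitors, Cish, a SOCS family protein with tandem STAT-type matches at its start, had log2 values of 7.80, 7.98, 7.53 and 7.71 on PBS arrays 1 to 4. On hBD-2 arrays 1 to 4 it was at 7.83, 7.56, 7.25 and 7.39. The groups overlapped because hBD-2 array 1 was higher than 3 of the 4 PBS arrays. The log2 fold change was -0.25 (SE 0.14, adjusted p by limma = 0.314), and -0.06 without hBD-2 arrays 3 and 4.

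Socs1, an inhibitor of JAK kinases that is also induced by interferons, was at 8.29, 8.34, 8.21 and 8.09 on PBS arrays 1 to 4 and at 8.40, 8.42, 8.25 and 8.35 on hBD-2 arrays 1 to 4. The groups overlapped, with a log2 fold change of 0.12 (SE 0.09, adjusted p by limma = 0.469). Cish minus Socs1 shifted by -0.37, from -0.48 ± 0.15 (SD, n = 4) to -0.85 ± 0.19 (exact two-sided permutation test, p = 0.0571, and 0.0857 adjusted over 3 contrasts), so an unequal change of these STAT5-responsive genes was not established either.

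Within the hBD-2 group, Il2ra, Il2rb, Stat5a and Cish ranked the arrays alike: array 1 was the highest, then array 2, array 4 and array 3. The interquartile range of the arrays followed the same order, at 3.64, 3.57, 3.45 and 3.45. After quantile normalization, which gives all arrays one distribution, the order of the arrays was kept in these 4 genes. Il2ra then had a log2 fold change of -0.64 (adjusted p by limma = 0.0446), against -0.17 for Il2rb, -0.14 for Stat5a and -0.16 for Cish.

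The 5 genes whose log2 values ran most like those of Il2ra over the 8 arrays were Mre11a (Pearson r = 0.994), Ptma (0.991), Sdr39u1 (0.990), Supt7l (0.990) and Rpn2 (0.989). These are the highest of 19505 correlations over 8 points that share arrays, normalization and groups, and they are a description only. Mre11a, a DNA break repair nuclease subunit, fell with a log2 fold change of -0.55 (adjusted p by limma = 0.0499), and Rpn2, a subunit of the oligosaccharyltransferase, fell with one of -0.55 (adjusted p by limma = 0.0389). Ptma, Sdr39u1 and Supt7l did not pass the threshold. Among the members, Il2rb had the highest correlation with Il2ra, at 0.949, followed by Cish at 0.884 and Stat5a at 0.871.

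The wider cytokine family was then examined in lists of genes that use the same gamma chain or the same kind of signalling. Of 5 other cytokines that signal through the gamma chain, Il9 rose and the others did not pass, and all 5 lay below the lower quartile of mean level. There were 2 of the 5 at an unadjusted limma p under 0.05, beside 22.3% of all genes. Il9, a cytokine gene of Th2 and Th9 cells, had a log2 fold change of 0.51 (SE 0.12, adjusted p by limma = 0.0376), a call lost after quantile normalization (0.0583), after cyclic loess (0.0584) and in 6 of the 8 single-array omissions (highest adjusted p by limma = 0.109). None of 7 partner receptor chains passed (0 also at an unadjusted limma p under 0.05, beside 22.3% of all genes, median log2 fold change -0.08). Il4ra, the IL-4 receptor alpha chain, was at 9.63 ± 0.12 and 9.43 ± 0.06 (SD, n = 4) and Il7r, the IL-7 receptor alpha chain, at 9.69 ± 0.12 and 9.55 ± 0.07 (adjusted p by limma = 0.237 and 0.397). Il15ra and Il21r, which complete the receptors of IL-15 and IL-21, had log2 fold changes of 0.02 and -0.14 (adjusted p by limma = 0.966 and 0.563).

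**Figure D2:**
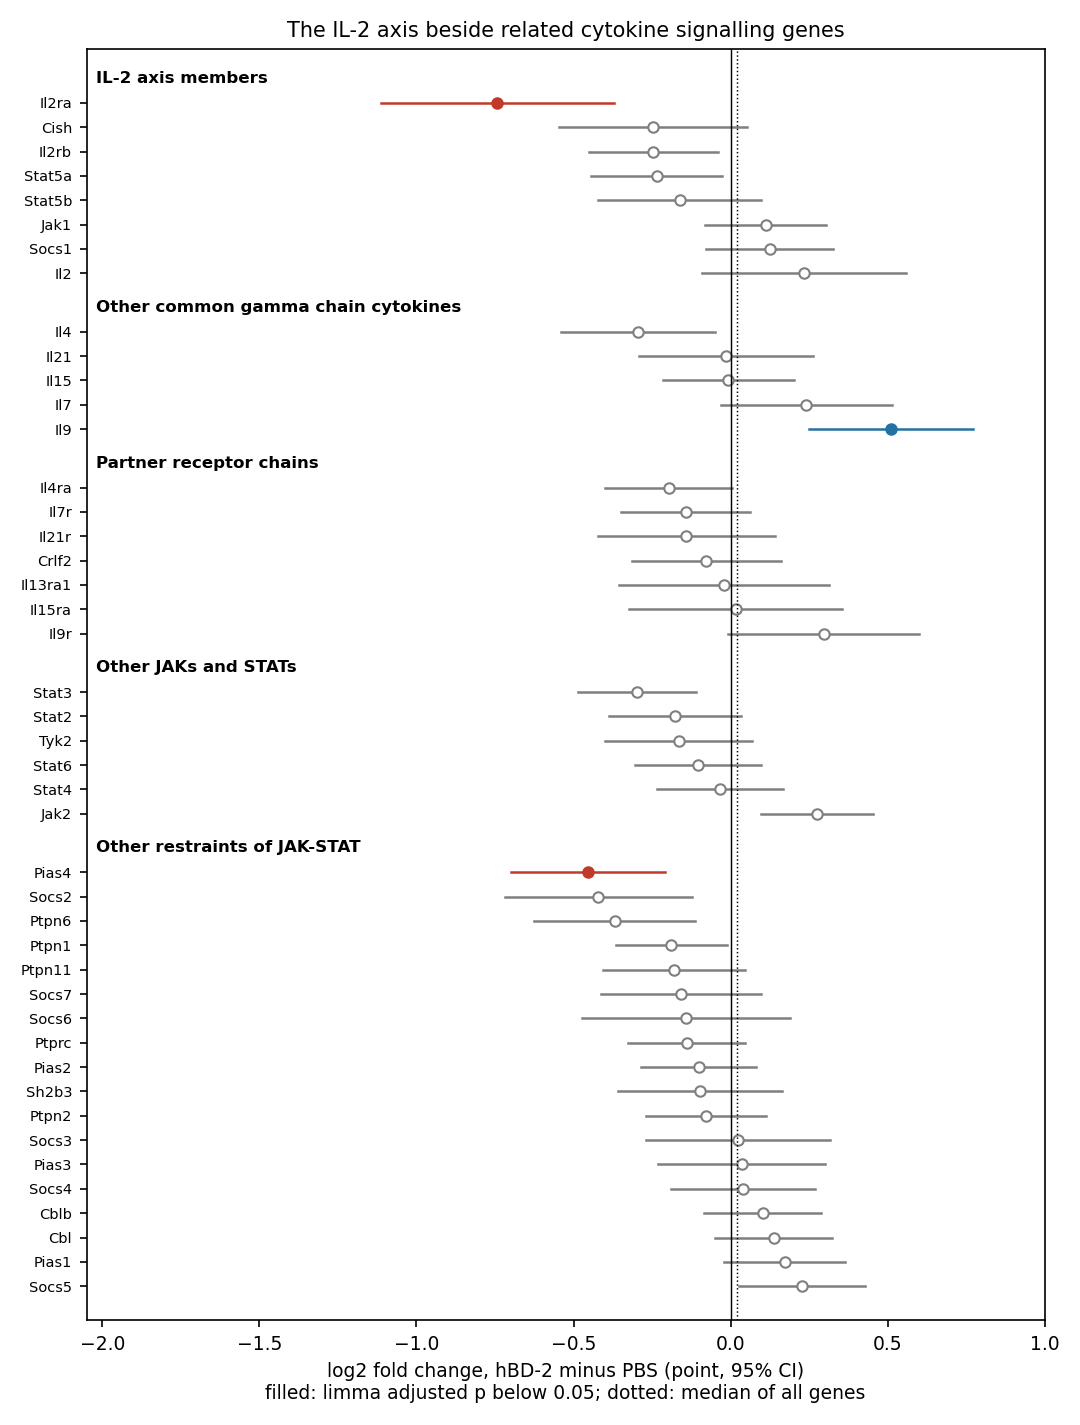
Log2 fold changes, hBD-2 minus PBS (horizontal axis, point and 95% confidence interval), of the members and of 4 lists of related genes, with filled points past a adjusted p by limma of 0.05 (red lower, blue higher). In the IL-2 axis Il2ra at -0.74 stands to the left of the other members, and in the other lists Il9 and Pias4 are the filled points.

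Of 6 other Janus kinase and STAT genes, none passed the threshold, and 2 had an unadjusted limma p under 0.05, beside 22.3% of all genes. Jak2, which serves other cytokine receptors, went from 9.42 ± 0.03 to 9.70 ± 0.05 (SD, n = 4), a log2 fold change of 0.27 with groups that did not overlap (adjusted p by limma = 0.0821). It passed after quantile normalization (0.36, adjusted p = 0.0327) and after cyclic loess (0.36, adjusted p = 0.0316), both by limma. Stat3, the main STAT of the IL-6 and IL-21 receptors, was at 9.43 ± 0.06 and 9.13 ± 0.07 (SD, n = 4; log2 fold change -0.30, adjusted p by limma = 0.0738), again without overlap. Its log2 fold change was smaller after quantile normalization (-0.20, adjusted p = 0.187) and after cyclic loess (-0.21, adjusted p = 0.162), both by limma.

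Among 18 other restraints of JAK-STAT signalling (SOCS and PIAS proteins, phosphatases and ubiquitin ligases), Pias4 fell, none rose and 17 did not pass. That is 5.56% of the list, beside 3.66% of all genes that were lower. At an unadjusted limma p under 0.05, a cut met by 22.3% of all genes, there were 5 of the 18. Pias4, a SUMO ligase of the PIAS family, had a log2 fold change of -0.45 (SE 0.11, adjusted p by limma = 0.0444). Its call was lost after quantile normalization (0.0746), after cyclic loess (0.0692), with the replicate block (0.0625) and in 6 of the 8 single-array omissions (highest adjusted p by limma = 0.119). Socs2, a STAT5-induced SOCS gene, was at 8.26 ± 0.11 and 7.84 ± 0.29 (SD, n = 4; log2 fold change -0.42, adjusted p by limma = 0.101), and Socs3 had a log2 fold change of 0.02 (adjusted p by limma = 0.938).

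Of 35 matched genes known to be induced by IL-2 or STAT5 in T cells, the members left out, 10 fell, none rose and 25 did not pass. That is 28.6% of the list, beside 3.66% of all genes that were lower, and the median log2 fold change was -0.28. The list is brighter than the table, with 25 of the 35 above the upper quartile of mean level. At an unadjusted limma p under 0.05, a cut met by 22.3% of all genes, there were 20 of the 35. Several of these genes were known from earlier results of these data to be lower, and many respond to the T cell receptor as well. These counts are therefore a description and no independent evidence of direction. The count past the threshold was 5 without hBD-2 arrays 3 and 4, a setting in which 0.656% of all genes passed. It was 19 (18 lower) with the variance trend and robust estimation, under which 10.4% of all genes passed. With dim genes left out it was 9, where 13.2% of the genes kept passed in either direction.

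The 6 with the smallest p were Nfil3, a leucine zipper transcription factor, Prf1 (perforin), Prdm1, the transcription factor Blimp-1, Ifng (interferon gamma), the co-stimulatory receptor gene Tnfrsf9, and the transferrin receptor gene Tfrc. Their log2 fold changes ran from -1.48 for Ifng to -0.81 for Tfrc (adjusted p by limma from 0.000700 to 0.0101). Gzmb, Ccr4, Xbp1 and Icos also fell and are named here after their values were seen. Icos lost its call after quantile normalization (adjusted p by limma = 0.0515) and in 6 of the 8 single-array omissions (highest 0.0965), Xbp1 in 5 (highest 0.0667) and Ccr4 in 2 (highest 0.0516).

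Of the genes by which IL-2 is known to support growth and survival, Bcl2, Myc and Pim1 did not pass the threshold. Bcl2, an inhibitor of apoptosis, was at 10.19 ± 0.05 and 10.09 ± 0.15 (SD, n = 4; adjusted p by limma = 0.593). Myc, the growth regulator, had a log2 fold change of -0.22 (95% confidence interval -0.45 to 0.01, adjusted p by limma = 0.251), and Pim1, a survival kinase gene induced by STAT5, one of 0.08 (-0.11 to 0.26, adjusted p by limma = 0.649). From the same list and named after their values were seen, Bcl2l1 and Pim2 were at -0.33 and -0.30, and Mcl1 at 0.20. None of them passed (adjusted p by limma = 0.168, 0.186 and 0.232). Of 6 matched genes known to be lowered by IL-2 or STAT5, among them Il7r, none passed, with a median of 0.15. There were 2 of the 6 at an unadjusted limma p under 0.05, a cut met by 22.3% of all genes.

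**Figure D3:**
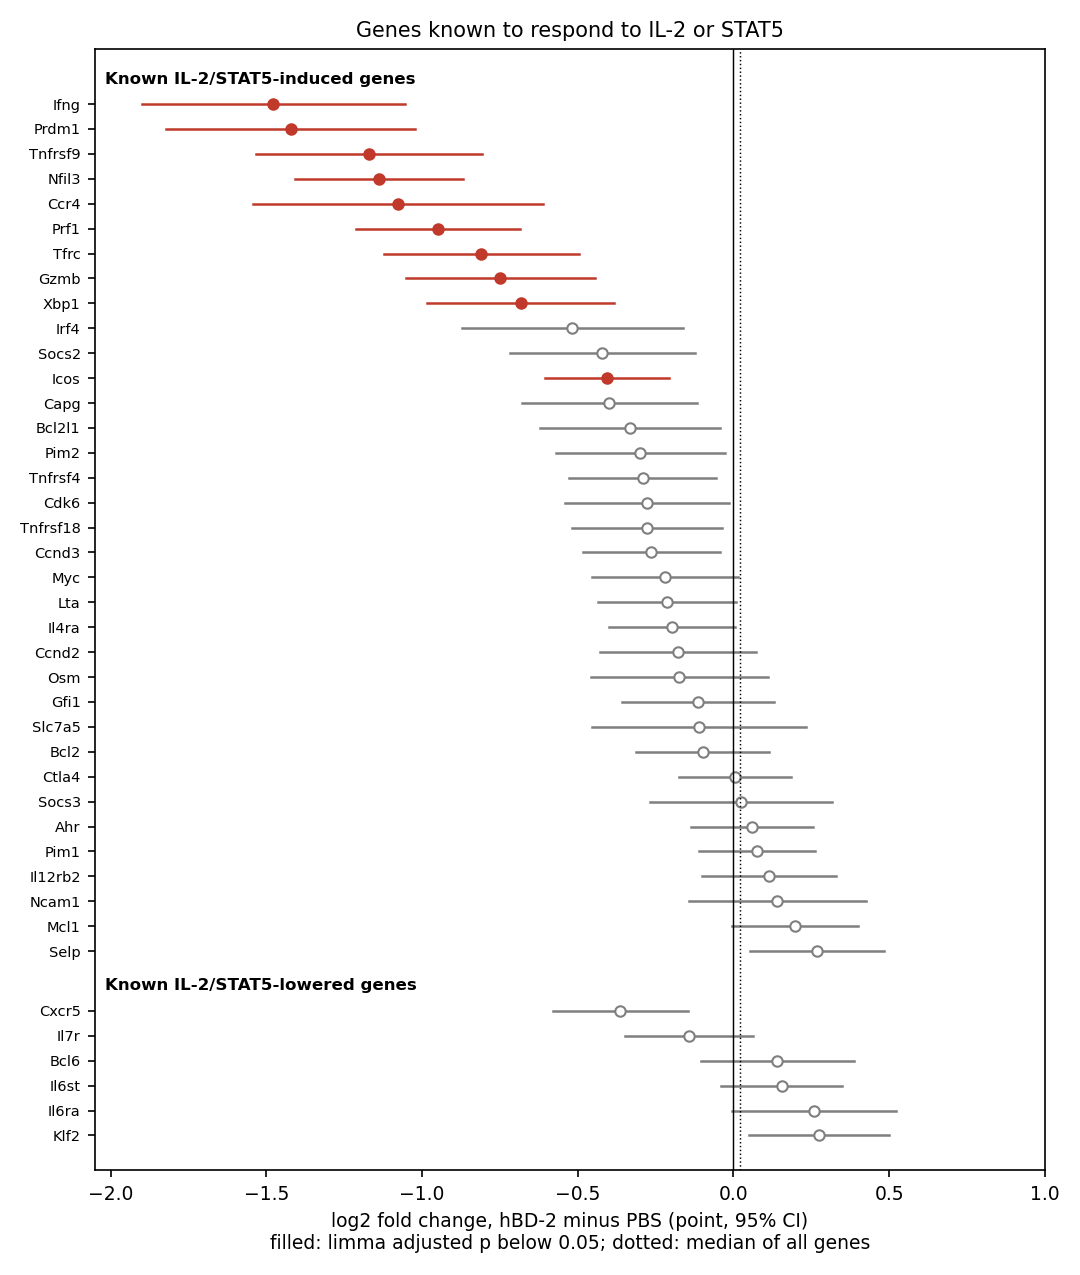
Log2 fold changes, hBD-2 minus PBS (horizontal axis, point and 95% confidence interval), of 35 genes known to be induced and 6 known to be lowered by IL-2 or STAT5, with filled points past a adjusted p by limma of 0.05. The 10 filled points all lie left of 0, while Bcl2 at -0.10 and Pim1 at 0.08 lie near it.

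Upstream of Il2, 20 matched genes of factors that act on its promoter included 1 that fell, the repressor gene Prdm1, with 19 not past the threshold and a median log2 fold change of -0.03. Of the 20, 8 had an unadjusted limma p under 0.05, a cut met by 22.3% of all genes. After quantile normalization Jun and Creb1, named after their values were seen, passed as higher (log2 fold changes 0.38 and 0.35, adjusted p by limma 0.0453 and 0.0494), and neither passed after cyclic loess (0.0518 and 0.0520). Prdm1 went from 5.68 ± 0.23 to 4.26 ± 0.40 (SD, n = 4; log2 fold change -1.42, adjusted p by limma = 0.00183). The NF-kappaB subunit genes Rel and Rela, named after their values were seen because the Il2ra window carries their motif, had log2 fold changes of 0.21 and 0.20 (adjusted p by limma = 0.169 and 0.213).

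Since regulatory T cells carry the alpha chain at rest, their other markers were read beside Il2ra. Of 8 matched, Ebi3, a subunit of IL-35, fell (log2 fold change -0.75, adjusted p by limma = 0.00973) and 7 did not pass, with a median of -0.16. The log2 fold change was below 0 for 7 of the 8 and above 0 for 1. At an unadjusted limma p under 0.05, a cut met by 22.3% of all genes, there were 4 of the 8. Ebi3 kept its call in all 8 single-array omissions (highest adjusted p by limma 0.0351), but not without hBD-2 arrays 3 and 4 (0.129). Ikzf2 (Helios), named after its values were seen, was the 1 marker above 0, at 0.38 (adjusted p by limma 0.0721). It passed after quantile normalization (0.47, 0.0408), after cyclic loess (0.46, 0.0433) and in 1 of the 8 single-array omissions (adjusted p by limma 0.0465). The list's mean log2 level per array ranged from 6.24 to 6.40 with PBS and from 5.98 to 6.26 with hBD-2. Foxp3, which defines the lineage, and Nrp1 were not matched. The part of these cells in the fall of Il2ra was not tested.

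Of the matched markers of other spleen cells, only Eomes lay above the upper quartile of mean level. It is in the natural killer cell list and is named after its values were seen, and which cells gave its signal was not tested. Of the 5 genes in that list, 2 lay below the lower quartile. The mean log2 level per array of 8 B cell markers ranged from 4.66 to 5.44 with PBS and from 4.81 to 6.01 with hBD-2, all 8 having a log2 fold change above 0. In the main fit none passed, also at an unadjusted limma p under 0.05. With the replicate block none passed the adjusted threshold. The lowest adjusted p by limma was then that of Cd79a, named after its values were seen, at 0.0691 (0.606 in the main fit). Among 8 mast cell and basophil markers, Cpa3 and Fcer1a rose (ranges of the list mean 4.56 to 4.67 and 4.78 to 5.22). In that list 7 log2 fold changes were above 0 and 1 below, with a median of 0.41. At an unadjusted limma p under 0.05, a cut met by 22.3% of all genes, there were 6 of the 8. The groups did not overlap for 4 of the 8, beside 14.9% of all genes. Cpa3 kept its call in all 8 single-array omissions (highest adjusted p by limma 0.0490), after quantile normalization (0.0261) and after cyclic loess (0.0190). Fcer1a lost its call after quantile normalization (adjusted p by limma 0.0538), with the replicate block (0.0575) and in 4 of the 8 single-array omissions (highest 0.0940). Neither gene passed without hBD-2 arrays 3 and 4 (0.0977 for Cpa3 and 0.182 for Fcer1a). Kit, named after its values were seen, was the 1 gene of this list below 0, with a log2 fold change of -0.67. Its adjusted p by limma was 0.0744, and 0.0384 without hBD-2 arrays 3 and 4. It passed in 1 of the 8 single-array omissions (adjusted p by limma 0.00654). Of 3 matched erythroid markers (list mean 4.68 to 4.87 and 4.93 to 5.09) Klf1 rose. That call was lost after quantile normalization (adjusted p by limma 0.0552), after cyclic loess (0.0535), with the replicate block (0.0684) and in 7 of the 8 omissions (highest 0.119), and without hBD-2 arrays 3 and 4 (0.291). Of 8 myeloid markers (list mean 3.93 to 4.24 and 3.89 to 4.24) Itgam fell. Its call was kept after quantile normalization (adjusted p by limma 0.0281), after cyclic loess (0.0263) and with the replicate block (0.0320). It was lost in 7 of the 8 omissions (highest adjusted p by limma 0.126) and without hBD-2 arrays 3 and 4 (0.265). None passed of 8 dendritic cell markers (3.94 to 4.13 and 4.04 to 4.27) and 5 natural killer cell markers (5.26 to 5.51 and 4.97 to 5.35). In these 2 lists 1 and 2 genes had an unadjusted limma p under 0.05, beside 22.3% of all genes. These arrays give no value of 0, so absence of a cell type cannot be read from them, and the part of these cells in the members' values was not tested.

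**Figure D4:**
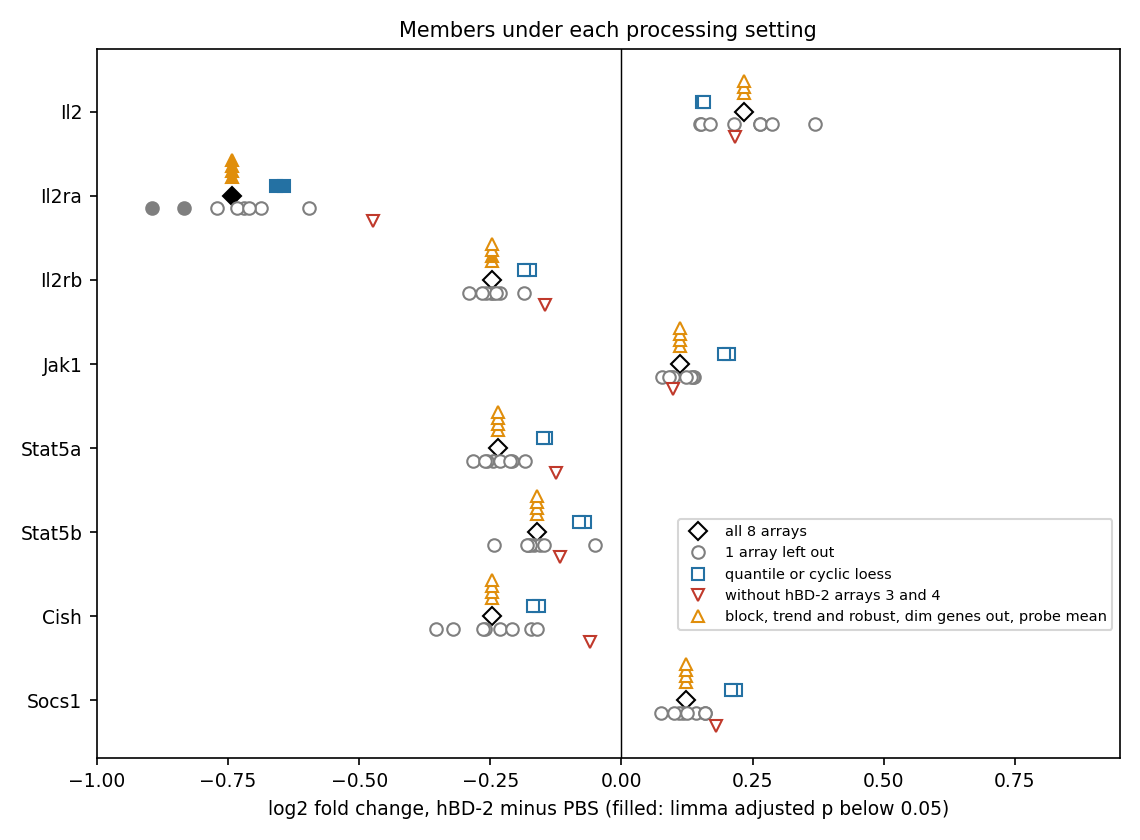
Log2 fold change of each matched member, hBD-2 minus PBS (horizontal axis), with all 8 arrays (black diamond) and under each alternative setting, filled where the adjusted p by limma was below 0.05. Il2ra stays between -0.89 and -0.47 but is filled in only 2 of the 8 fits without a single array, and no member crosses 0.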

How the data were processed

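The log2 values used here are those deposited by the authors, for 22203 probe sets on 8 arrays. Per the submitters' processing notes, oligo and RMA (background correction, normalization and probe summary) were used, with versions, settings and annotation build not given in the sources used here. A platform annotation table named 19572 probe sets, leaving 2631 unnamed. Where a gene had several, the one with the highest mean was kept, giving 19505 genes, with no filter on dim genes. limma 3.58.1 in R 4.3.3 (lmFit, eBayes) compared 4 hBD-2 with 4 PBS arrays without a block, with two-sided tests and Benjamini-Hochberg adjusted p-values over all genes, and it was tested on simulated data. Single values per array were compared by exact permutation, and 3 of 6 planned contrasts could be computed because Il2rg and Jak3 were not matched. The number of arrays limits the precision, and RMA compresses changes of dim genes.

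Members and the 16 other lists were chosen with earlier results of these data known. Named are all members, list genes past the threshold (at most 6 per list, by p), 12 fixed genes and the 5 genes most like Il2ra. The rule's further exceptions are stated where they occur. Alternatives were a replicate block, quantile normalization, cyclic loess, variance trend with robust estimation, dim genes left out (below percentile 40, a log2 value of 4.74), the mean of a gene's probe sets, each array left out, and hBD-2 arrays 3 and 4 left out together. The count of IL-2 and STAT5 target genes under these was added after seeing the data.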

Additional observations from a re-analysis of the deposited data

How the results depend on the processing

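All member fold changes kept their direction under every alternative run, and Il2ra kept its call under all except 6 of the single-array omissions (log2 fold change -0.89 to -0.60 over the 8) and the omission of hBD-2 arrays 3 and 4 together (-0.47). The members called numbered 0 to 1 over the single-array omissions, 0 without both arrays and 2 with trend and robust estimation, which added Il2rb. The genes called overall numbered 869 with all arrays, 312 to 1396 over the omissions (lowest without PBS replicate 1, highest without hBD-2 replicate 1), 128 without both arrays, 2033 with trend and robust estimation and 1541 with dim genes left out, where fewer genes are tested and Il2 is among those removed. The contrast Stat5a minus Stat5b ran from -0.16 to 0.059 over the omissions, the reversal being that without hBD-2 replicate 3. The 2 other contrasts stayed below 0. Same-numbered arrays deviated together only weakly (correlations of 0.181, 0.0585, 0.159 and 0.00482). By this measure, hBD-2 arrays 1, 2 and 3 nevertheless had the PBS array of the same number as best partner, mutually for numbers 1 and 3. The best partners of hBD-2 array 4 and of PBS arrays 2 and 4 bore another number. Whether the numbers pair the samples was thus left undecided. As the labels link no array to a mouse, the main fit used no block. With the replicate block, 857 genes were called, Il2ra kept its value of -0.74 (limma adjusted p = 0.00958), 1 member was called, and the contrasts kept their values of -0.50, -0.073 and -0.37 (exact paired permutation, adjusted p = 0.188, 0.750 and 0.188, where 4 pairs cannot give a p under 0.125 and so could not pass). Apart from those the text gives, the cause of a lost call was not tested. Signal near the floor limits what can be said of Il2.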

Other observations

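IL-2 also acts through adaptors to the MAPK and PI3K routes. Of 12 matched adaptor and kinase genes of these routes, none rose or fell by limma at the adjusted threshold (2 at an unadjusted p under 0.05, a cut met by 22.3% of all genes), with 8 log2 fold changes below 0 and a median of -0.09. These log2 fold changes ran from -0.33 to 0.30.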
